A study of Homo sapiens with 12 samples.

Results

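Two-channel arrays were used to set RNA of drug-treated H460 cells against RNA of untreated H460 cells, and the comparison described here is cisplatin against paclitaxel. H460 is an established human lung cancer line. The comparison takes the 2 arrays titled for cisplatin (5 µM for 24 h) and the 2 titled for paclitaxel (5 nM for 24 h), 4 of the 12 arrays of the series. The series also holds cytarabine (0.2 µM) and cytochalasin D (0.2 µM), each for 24 h on 2 arrays, and 4 arrays of 5-fluorouracil (1 µM for 24 h). On 2 of the 5-fluorouracil arrays the treated RNA is in channel 2, and their values were turned in sign. On the other 2 it is in channel 1. On all cisplatin, paclitaxel, cytarabine and cytochalasin D arrays the treated RNA is in channel 1, so an effect of the channel that these arrays share cancels in a difference between drugs. It does not cancel within 1 drug, and the ratios to untreated RNA are therefore given without a test. The labels do not say whether the 2 arrays of a drug came from separate cultures, nor whether untreated RNA was shared, so the p-values measure the spread between arrays, which may be technical.

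Cisplatin binds to purine bases and forms crosslinks in DNA, which are removed mainly by nucleotide excision repair and which activate the checkpoint kinases. In many cells this is followed by induction of genes for cell cycle arrest, repair and death, called DNA damage-induced genes here. Paclitaxel binds to tubulin in assembled microtubules and stabilises them, and at low doses it disturbs the mitotic spindle without damaging DNA directly. Both drugs are used against lung cancer.

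Each value is a deposited log ratio of the channels, taken here as log2, centred on the median of its array and read as treated over untreated. The log base and the numerator are not stated in the sources used here: the direction is the likely one, set so that MDM2 is positive in the 5-fluorouracil arrays. If the logarithm were natural, sizes and folds would differ, and directions and calls would not. Of 7739 features (a gene, or a probe without 1 gene name), 6891 had values on all 4 arrays, and 4862 of those are named genes. Values per array numbered 7644 and 7557 for cisplatin, against 7477 and 7473 for paclitaxel, out of 8170 probes. Pearson's r across probes, a description, was 0.776 between the cisplatin arrays and 0.713 between the paclitaxel arrays, and 0.409 to 0.442 between arrays of the 2 drugs. Paclitaxel arrays correlated with those of cytarabine at 0.708 to 0.725 and with those of cytochalasin D at 0.629 to 0.655. For cisplatin arrays these values were 0.349 to 0.398 and 0.355 to 0.401. The paclitaxel arrays were thus about as alike to the cytarabine arrays as to each other. All these arrays have treated RNA in channel 1. In r, a shared channel effect or shared untreated RNA cannot be told apart from alike responses to the drugs.

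The cisplatin arrays differed from the paclitaxel arrays in a limited set of genes, most of them higher in cisplatin and led by DNA damage-induced genes. With limma on the 8 arrays of the 4 drugs in this orientation, 391 of 6891 features (5.67%) passed a Benjamini-Hochberg adjusted p of 0.05. Of these, 280 (4.06%) were higher and 111 (1.61%) lower in cisplatin. A difference of at least 1 on the log2 scale was seen in 70 of the higher and 2 of the lower features. The 2 cisplatin values lay outside the range of the 2 paclitaxel values, with no overlap, in 3809 features (55.3%), so that a lack of overlap alone is common in these data. The count of calls fell to 129 without the first cisplatin array, 119 without the second, 121 without the first paclitaxel array and 148 without the second, and to 260 without either cytochalasin D array.

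In most features that passed, the cisplatin mean was the one farther from 0. These features were picked by the difference between the drugs, and the share over all features was not computed. In ratios to untreated RNA, a channel effect common to the arrays cannot be told apart from a drug effect. Among the 280 higher features the median ratio to untreated was 0.51 in cisplatin and −0.21 in paclitaxel, and the cisplatin mean was the one farther from 0 in 208 of them. In 214 the cisplatin mean was above 0 and the paclitaxel mean below it, in 46 both were above 0 and in 20 both were below. Among the 111 lower features the medians were −0.45 in cisplatin and 0.16 in paclitaxel, and the cisplatin mean was farther from 0 in 89. Over all 6891 features the highest mean was 3.66 in cisplatin and 0.70 in paclitaxel, and the lowest was −1.89 in cisplatin and −2.14 in paclitaxel. A mean of at least 1 in size, in either direction, was seen in 136 features in cisplatin and in 169 in paclitaxel. Among those of the features with a value, it was seen in 293 of 6803 in cytarabine and 163 of 6879 in cytochalasin D.

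**Figure D1:**
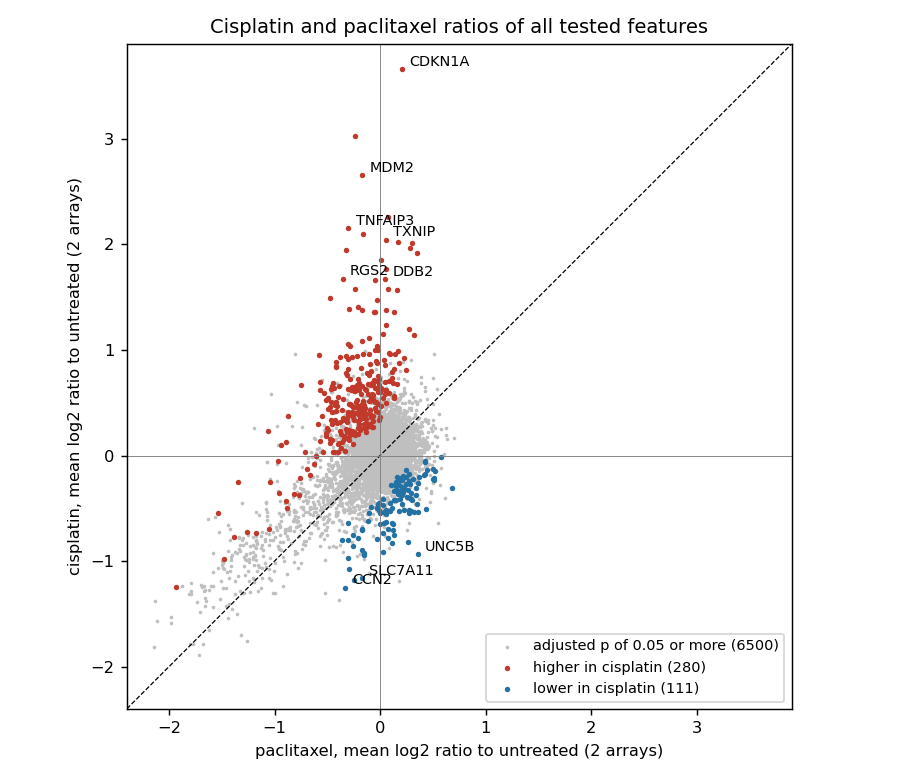
Mean log2 ratio to untreated RNA of each of the 6891 features in cisplatin (vertical axis, 2 arrays) and in paclitaxel (horizontal axis, 2 arrays). Red points (280) are higher and blue points (111) lower in cisplatin at adjusted p under 0.05, grey points are the rest, and the dashed line marks equal ratios.

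CDKN1A, which encodes the cyclin-dependent kinase inhibitor p21, showed the largest difference of all. Its log2 ratios were 3.12 and 4.20 on the cisplatin arrays, against 0.24 and 0.18 on the paclitaxel arrays. Every cisplatin value lay far above both paclitaxel values, and the cisplatin arrays also differed from each other by more than in any other DNA damage-induced gene that passed. The difference was 3.45 ± 0.30 (SE), a 10.9-fold higher ratio in cisplatin (limma, adjusted p = 0.002465), and 1.76 under quantile normalization. MDM2, which encodes an E3 ubiquitin ligase, had ratios of 2.745 and 2.565 in cisplatin and −0.22 and −0.12 in paclitaxel. Both arrays of each drug were close together, and the difference of 2.83 ± 0.14 passed the test (limma, adjusted p = 0.0004031). Quantile normalization, which gives all arrays the same distribution, made that of MDM2 1.67, and both genes passed there too.

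Of the 38 genes in the list of DNA damage-induced genes, 21 are on the array and 18 had all values. In cisplatin 12 of these 18 (66.7%) were higher and 0 were lower, against 4.06% and 1.61% of all features. Their median difference was 1.21, beside 0.0042 over all features, and all 18 differences were above 0. The count was 10 to 12 with any 1 of the 8 arrays left out, and 5 among features with values on all 12 arrays of the series, a setting that leaves fewer genes to test. The list and the genes were chosen with earlier results of these data known.

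The genes that passed have several roles. PLK3, a stress-responsive kinase, had ratios of 2.04 and 2.02 in cisplatin, against 0.20 and 0.15 in paclitaxel, and SESN1, a sestrin that restrains mTORC1, had 1.79 and 2.06 against 0.25 and 0.45. Neither gene had overlapping arrays, which was also so in 55.3% of all tested features, and SESN1 was above 0 on both paclitaxel arrays. RRM2B, a damage-inducible subunit of ribonucleotide reductase, had 1.35 and 1.596 in cisplatin, against 0.01 and −0.07 in paclitaxel. CCNG1, the cyclin G1 gene, had ratios of 0.74 and 0.53 in cisplatin and −0.47 and −0.46 in paclitaxel. Its means in cytarabine (−0.54) and cytochalasin D (−0.32) were also below 0, so this was not particular to paclitaxel. The differences were 1.85 ± 0.08 for PLK3, 1.58 ± 0.12 for SESN1, 1.501 ± 0.13 for RRM2B and 1.10 ± 0.09 for CCNG1 (limma, adjusted p = 0.0007119, 0.002046, 0.002465 and 0.002465). Under quantile normalization PLK3 differed by 1.01, SESN1 by 0.74 and RRM2B by 0.99, and all 3 passed. SESN1, RRM2B and CCNG1, and EI24 below, were chosen after their values were seen. The ratios of these 4 genes in cytarabine and cytochalasin D, shown in the plot of DNA damage-induced genes, lay below those of cisplatin. For EI24 they came closest, with 0.64 on the second cisplatin array and 0.28 on the first cytochalasin D array.

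Among the repair genes, the nucleotide excision repair recognition factors DDB2 and XPC were far higher in cisplatin. The excision repair genes ERCC6 and ERCC8, on the same list, differed by 0.0019 and 0.061 and did not pass (limma, adjusted p = 0.9963 and 0.797). DDB2, the damage-binding subunit that finds distorted DNA, had ratios of 1.63 and 1.72 in cisplatin, against 0.03 and 0.06 in paclitaxel, a difference of 1.62 ± 0.10 (limma, adjusted p = 0.001197). XPC, which then loads the repair complex, had 1.40 and 1.76 in cisplatin, against 0.09 and 0.05 in paclitaxel, a difference of 1.51 ± 0.13 (limma, adjusted p = 0.002465). For both genes the paclitaxel arrays were near 0 and the cisplatin arrays were above 1. Under quantile normalization the differences were 0.98 for DDB2 and 0.94 for XPC, and both passed. Both are also members of the list of DNA damage-induced genes, so the lists are not independent.

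The death receptor gene FAS had ratios of 1.16 and 1.598 in cisplatin, against 0.01 and 0.09 in paclitaxel, and was higher by 1.33 ± 0.15 (limma, adjusted p = 0.006009), or by 0.85 under quantile normalization, where it passed. BBC3, which encodes the pro-death BCL2 family protein PUMA, was higher by 0.65 ± 0.08 (limma, adjusted p = 0.008426). Its call was lost without the first cisplatin array (0.62) and without the second paclitaxel array (0.60). These were the 2 of 25 cell death regulators (8%) that passed, and with either of the arrays just named left out 1 passed. Over all features the share that was higher was 4.06%. CASP8, the caspase that FAS recruits, had a difference of 1.10 that did not pass (limma, adjusted p = 0.05888).

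PPM1D encodes the phosphatase WIP1, which shuts off the damage response, and its 3 probes did not agree. The gene mean was 1.71 and 1.62 in cisplatin and 0.02 and −0.12 in paclitaxel, a difference of 1.72 ± 0.18 (limma, adjusted p = 0.004014). Its probes differed by 2.47 and by 0.12 where all values were present, and the remaining probe, with 2.72 and 2.36 in cisplatin, had 1 paclitaxel value. Only the probe at 0.12 had values on all 12 arrays, so the gene did not pass in that setting, and under quantile normalization the gene mean differed by 1.10 and passed. EI24 passed at 0.68 ± 0.14 (limma, adjusted p = 0.03758), but lost its call with any 1 of the cisplatin, paclitaxel or cytarabine arrays left out, at 0.53 to 0.83, with only the 4 cisplatin and paclitaxel arrays (limma, adjusted p = 0.05841) and under quantile normalization (0.49).

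The other 6 tested DNA damage-induced genes did not pass. The DNA damage polymerase gene POLH differed by 0.21, the death receptor genes TNFRSF10B and TNFRSF10C by 0.096 and 0.31, the redox gene TP53I3 by 0.28, CYFIP2 by 0.40 and the antiproliferative gene TOB1 by 0.15. The 95% interval for TP53I3, −0.036 to 0.60, does not exclude a modest difference. PMAIP1, the gene of the pro-death protein NOXA, could not be tested: its ratios were 0.83 and 0.51 in cisplatin and 0.19 on the first paclitaxel array, with no value on the second. TRIAP1 and GDF15 had no values on these 4 arrays.

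**Figure D2:**
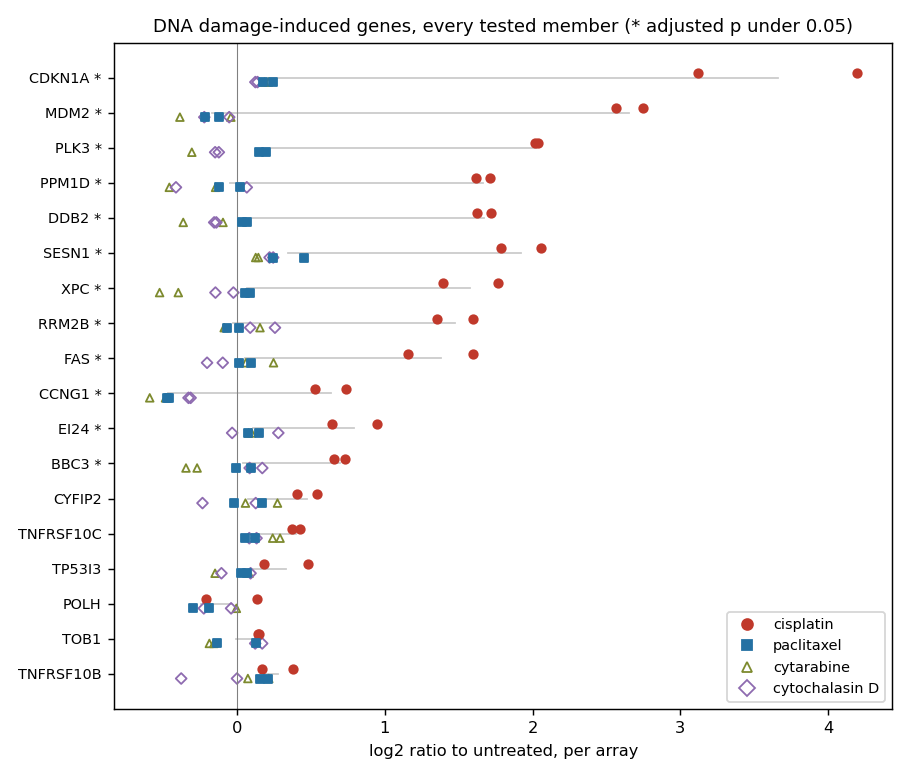
Log2 ratio to untreated RNA per array (horizontal axis) for each of the 18 tested DNA damage-induced genes (rows), with 2 points per drug and a grey line joining the cisplatin and paclitaxel means; an asterisk marks adjusted p under 0.05. In the 12 marked genes, and in unmarked ones such as TP53I3, both cisplatin points lie right of all paclitaxel points. A lack of overlap in either direction was seen in 55.3% of all tested features. CDKN1A reaches 4.20 on the second cisplatin array.

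DNA damage signalling and repair beyond DDB2 and XPC differed in few genes. Of 41 tested members, DDB2 and XPC included, 5 (12.2%) were higher and 1 (2.44%) was lower in cisplatin. The shares over all features were 4.06% and 1.61%, and the median difference of the list was 0.079. BARD1, the partner of BRCA1, had ratios of 0.75 and 0.51 in cisplatin, against −0.35 and −0.25 in paclitaxel (difference 0.93 ± 0.12, limma, adjusted p = 0.008259). MGMT, which reverses alkylation of guanine, was the lower one, with −0.58 and −0.44 in cisplatin, against 0.33 and 0.22 in paclitaxel (difference −0.78 ± 0.12, limma, adjusted p = 0.01732). The arrays of BARD1 and MGMT did not overlap between the drugs, which was also so in 55.3% of all tested features. BARD1 lost its call without the first cisplatin array (0.82) or the first paclitaxel array (0.88). MGMT lost it without any 1 of the cisplatin and paclitaxel arrays (−0.85 to −0.71), and when 5-fluorouracil arrays were added (limma, adjusted p = 0.3859 with 10 arrays and 0.3743 with 12). FANCC and MRE11, a Fanconi anaemia gene and a break-end nuclease gene chosen after their values were seen, passed at 0.48 and 0.61 and lost their calls without any 1 of the cisplatin, paclitaxel or cytochalasin D arrays (0.40 to 0.56 and 0.50 to 0.72) or with only the 4 cisplatin and paclitaxel arrays (limma, adjusted p = 0.0716 and 0.06769). FANCC also lost its call when 5-fluorouracil arrays were added (limma, adjusted p = 0.2552 with 10 arrays and 0.2794 with 12). For the list, 3 passed without either cisplatin array and 2 without the first paclitaxel array. ERCC1 and XPA, further excision repair genes, gave no value for this comparison.

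The genes of the G1/S transition and replication that passed were all higher in cisplatin. Of 43 tested members 5 (11.6%) were higher and 0 lower, against 4.06% and 1.61% of all features, with a median difference of 0.13. RPA2, a subunit of the protein that coats single-stranded DNA, had ratios of 1.17 and 0.91 in cisplatin, against −0.17 and 0.11 in paclitaxel, a difference of 1.07 ± 0.13 (limma, adjusted p = 0.008137). The clamp loader gene RFC5 differed by 0.82, the flap endonuclease gene FEN1 by 0.78, and the helicase subunit genes MCM7 and MCM2 by 0.68 and 0.60. The 2 probes of MCM7 differed by 1.29 and 0.074 between the drugs, so the gene mean hides a disagreement. RPA2 lost its call without the first cisplatin array (0.95) or the first paclitaxel array (0.93). RFC5 lost it without the first cisplatin array (0.68) or either paclitaxel array (0.80 and 0.85), FEN1 without the second cisplatin array (0.58) or either paclitaxel array (0.74 and 0.81), and MCM7 without the first cisplatin (0.56), the second cisplatin (0.80) or the second paclitaxel array (0.56). With only the 4 cisplatin and paclitaxel arrays FEN1 and MCM7 did not pass either (limma, adjusted p = 0.0589 and 0.06375). MCM2, chosen after its values were seen, passed at adjusted p = 0.04975 (limma), and lost its call in 14 of 18 alternatives: without any 1 of the cisplatin, paclitaxel or cytarabine arrays (0.50 to 0.70), and in 8 of the settings that left out no single array. For the list, 1 gene passed without the first cisplatin or the first paclitaxel array and 2 passed without the second of either drug.

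NF-kB is a transcription factor family that induces cytokines, chemokines and its own inhibitors, and part of its target list was higher in cisplatin. Of 20 tested targets 5 (25%) were higher and 0 lower, against 4.06% and 1.61% of all features, with a median difference of 0.24. TNFAIP3, which encodes the ubiquitin-editing inhibitor A20, had ratios of 2.005 and 2.30 in cisplatin, against −0.35 and −0.25 in paclitaxel. The difference of 2.45 ± 0.11 (5.48-fold, limma, adjusted p = 0.0004019) was the third largest among named genes, and 1.61 under quantile normalization. IL6, the cytokine gene, had 1.17 and 1.55 in cisplatin and −0.045 and −0.077 in paclitaxel (difference 1.42 ± 0.13, limma, adjusted p = 0.002691). CXCL8, the neutrophil chemokine gene, had 0.86 and 1.02 in cisplatin and −0.40 and −0.24 in paclitaxel (difference 1.26 ± 0.10, limma, adjusted p = 0.002465). PLAU, the urokinase gene, had 1.10 and 1.02 in cisplatin and −0.31 and −0.30 in paclitaxel (difference 1.37 ± 0.13, limma, adjusted p = 0.003143). In all 4 genes the cisplatin arrays were above 0 and the paclitaxel arrays below it, and all 4 kept their calls in each alternative run.

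The fifth, SOD2, the mitochondrial superoxide dismutase gene, differed by 0.56 ± 0.09 (limma, adjusted p = 0.02194) and lost its call without the second cisplatin array (0.47) or either paclitaxel array (0.53 and 0.59). SOD2 also did not pass with only the 4 cisplatin and paclitaxel arrays, nor with 5-fluorouracil arrays added (limma, adjusted p = 0.05919 with 4 arrays, 0.1105 with 10 and 0.2065 with 12). The adhesion molecule genes VCAM1 and ICAM1 differed by 0.015 and 0.073, and IRF1 by −0.085. The subunit genes NFKB1 and RELA had differences of 1.01 and 0.70 that did not pass (limma, adjusted p = 0.06766 and 0.09236). NFKB1 was near 0 in cisplatin and its paclitaxel values were −0.99 and −1.15.

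The proximal promoters of 3 list members are shown because they carry the NF-kB consensus and yet differ in response: TNFAIP3 and IL6 were higher in cisplatin, VCAM1 did not pass. Each line gives the 100 bases before the gene start, 5′ to 3′ on the strand of the gene, from RefSeq on GRCh38.p14, with the consensus in capitals. The windows are chr6:137867159-137867258 (plus strand) for TNFAIP3, chr7:22727100-22727199 (plus strand) for IL6 and chr1:100719642-100719741 (plus strand) for VCAM1.
TNFAIP3: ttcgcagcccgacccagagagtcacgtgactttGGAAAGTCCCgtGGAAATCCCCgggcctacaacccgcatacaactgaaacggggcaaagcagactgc
IL6: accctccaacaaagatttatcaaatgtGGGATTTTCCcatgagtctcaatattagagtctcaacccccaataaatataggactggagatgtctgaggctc
VCAM1: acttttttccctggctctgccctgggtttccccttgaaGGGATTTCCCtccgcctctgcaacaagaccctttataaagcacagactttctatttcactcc
TNFAIP3 holds 2 matches that begin 67 and 55 bases before the start, IL6 holds 1 at 73 and VCAM1 holds 1 at 62. The search covered 250 bases before to 50 after each start on both strands, and 10.8% of 27305 RefSeq promoters held a match. Among list members with a window, 2 of the 5 that passed and 9 of the 14 that did not held one. The match therefore did not separate the members that were higher from the others. A match, or its lack, says nothing of sites outside this window.

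Immediate early genes and feedback regulators, which answer growth factor and stress signals within minutes to hours, made up the list with the highest share after the DNA damage-induced genes. Of 19 tested members 8 (42.1%) were higher in cisplatin and 0 lower, against 4.06% and 1.61% of all features, and the median difference was 0.30. RGS2, a brake on G protein signalling, had ratios of 1.74 and 1.62 in cisplatin, against −0.39 and −0.32 in paclitaxel. This gave a difference of 2.03 ± 0.08 and the lowest adjusted p of the comparison (limma, 0.0003045). IER3, a stress-induced survival gene, had 1.11 and 1.20 in cisplatin and −0.056 and 0.11 in paclitaxel (difference 1.13 ± 0.10, limma, adjusted p = 0.002691). EGR1, the zinc finger factor that is a standard immediate early marker, had 0.72 and 0.88 in cisplatin and −0.12 and −0.046 in paclitaxel (difference 0.88 ± 0.10, limma, adjusted p = 0.006009). None of these 3 genes overlapped between the drugs, which was also so in 55.3% of all tested features.

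The AP-1 subunit gene FOSL2 had ratios of 1.55 and 1.99 in cisplatin and 0.15 and −0.048 in paclitaxel, and 1 of its 2 probes lacked a value on the first paclitaxel array. Its difference of 1.72 ± 0.21 (limma, adjusted p = 0.007691) lost its call without the second cisplatin array (1.501) or the second paclitaxel array (1.62), and was 1.02 under quantile normalization, where it passed. KLF10, a TGF-beta-inducible factor, differed by 1.22 ± 0.16 (limma, adjusted p = 0.008934) and lost its call without either cisplatin array (1.16 and 1.29), under quantile normalization (0.76) and with all 12 arrays and a channel term (limma, adjusted p = 0.06123). The matricellular gene CCN1 differed by 0.85 ± 0.08 (limma, adjusted p = 0.002691), with 0.59 and 0.63 in cisplatin and −0.26 and −0.22 in paclitaxel, and lost its call when 5-fluorouracil arrays were added to the fit (limma, adjusted p = 0.2788 with 10 arrays and 0.2994 with 12). NR4A1 and SGK1 differed by 0.57 and 0.60 and lost their calls without any 1 of the cisplatin, paclitaxel or cytochalasin D arrays (0.47 to 0.68 and 0.48 to 0.72) or with only the 4 cisplatin and paclitaxel arrays (limma, adjusted p = 0.07155 and 0.05987). NR4A1 also lost it under quantile normalization (0.44) and with the replicate block (limma, adjusted p = 0.05555), and SGK1 with 5-fluorouracil arrays added (0.07778 with 10 arrays and 0.1181 with 12). SGK1 was below 0 on all 4 arrays, at −0.24 and −0.47 in cisplatin and −0.99 and −0.92 in paclitaxel. EGR1, NR4A1 and SGK1 were chosen after their values were seen. The list kept 5, 4 and 5 calls without the first cisplatin, the second cisplatin and the second paclitaxel array. MYC, DUSP2 and SPRY2 had differences between −0.027 and 0.057.

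Genes that handle thiols and platinum moved in both directions. Of 25 tested members 3 (12%) were higher and 3 (12%) lower in cisplatin, against 4.06% and 1.61% of all features, with a median difference of 0.0052. TXNIP, the inhibitor of thioredoxin that also limits glucose uptake, had ratios of 1.93 and 2.16 in cisplatin and 0.10 and 0.015 in paclitaxel. It was higher by 1.99 ± 0.12 (limma, adjusted p = 0.001161), with arrays far apart between the drugs, and by 1.15 under quantile normalization, where it also passed. SLC7A11, the cystine transporter subunit that feeds glutathione synthesis, had −1.07 and −1.26 in cisplatin and −0.21 and −0.13 in paclitaxel. It was lower by 0.99 ± 0.09 on the log2 scale (limma, adjusted p = 0.002767), and all 4 values were below 0. ALDH3A1, an aldehyde dehydrogenase gene, was higher by 1.07 ± 0.13 (limma, adjusted p = 0.007691), and lost its call without the second array of either drug (0.96 without that of cisplatin, 1.01 without that of paclitaxel) and with 10 arrays in the fit (limma, adjusted p = 0.05533).

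SLC31A1, the copper transporter that also takes up cisplatin, had ratios of −0.26 and −0.29 in cisplatin and 0.092 and 0.11 in paclitaxel. TXNRD1, thioredoxin reductase, had −0.73 and −0.87 in cisplatin and −0.37 and −0.35 in paclitaxel. Both differences passed, at −0.38 ± 0.07 and −0.44 ± 0.08 (limma, adjusted p = 0.03372 and 0.03), and both genes were chosen after their values were seen. SLC31A1 lost its call with any 1 of the 8 arrays left out (−0.39 to −0.36), and TXNRD1 without any 1 of the cisplatin, paclitaxel or cytochalasin D arrays (−0.51 to −0.38). Both also did not pass with only the 4 cisplatin and paclitaxel arrays (limma, adjusted p = 0.09168 and 0.08163), with all 12 arrays (0.06315 and 0.07586) and with the replicate block (0.05285 and 0.05242), and SLC31A1 with 10 arrays (0.06464) and TXNRD1 with scaled arrays (0.05914). For the list, 2 passed without the second cisplatin or the second paclitaxel array and 3 without the first paclitaxel array. The haem oxygenase gene HMOX1, the glutathione synthesis gene GCLM and the metallothionein gene MT1X differed by −0.12, −0.19 and −0.014 and did not pass.

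The amino acid and unfolded protein response list was the one with the most members lower in cisplatin. This program, driven largely by the factor ATF4, supplies amino acid transporters and biosynthetic enzymes, and its other arm supplies endoplasmic reticulum chaperones. Of 26 tested members 0 were higher and 6 (23.1%) lower, against 1.61% of all features, and the median difference was −0.13. Beside SLC7A11, these were the transporter gene SLC7A5, ASNS for asparagine synthesis, PYCR1 for proline synthesis, the transcription factor gene CEBPB and EDEM1, which sends misfolded glycoproteins to degradation.

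CEBPB had ratios of −0.51 and −0.58 in cisplatin, against 0.35 and 0.20 in paclitaxel, and was lower by 0.82 ± 0.12 on the log2 scale (limma, adjusted p = 0.01198). PYCR1 had −0.65 and −0.63 in cisplatin, against 0.0069 and 0.22 in paclitaxel (difference −0.75 ± 0.09, limma, adjusted p = 0.007691). ASNS had −0.79 and −0.92 in cisplatin, against −0.25 and −0.26 in paclitaxel (difference −0.60 ± 0.09, limma, adjusted p = 0.01682). CEBPB and PYCR1 were below 0 in cisplatin and above it in paclitaxel, whereas ASNS was below 0 with both drugs. SLC7A5 and EDEM1, chosen after their values were seen, differed by −0.47 and −0.44. CEBPB lost its call without either cisplatin array (−0.86 and −0.78) or the first paclitaxel array (−0.75), PYCR1 without either cisplatin array (−0.74 and −0.77) and ASNS without any 1 of the cisplatin and paclitaxel arrays (−0.66 to −0.53). With 5-fluorouracil arrays added PYCR1 did not pass (limma, adjusted p = 0.3656 with 10 arrays and 0.3549 with 12), nor did ASNS with 12 arrays (0.06863). SLC7A5 and EDEM1 lost theirs with any 1 of the 8 arrays left out (−0.58 to −0.36 and −0.54 to −0.34) and with only the 4 cisplatin and paclitaxel arrays (limma, adjusted p = 0.08869 and 0.09549), and EDEM1 also with the replicate block (0.06626). The list kept 1 call without either cisplatin array and 2 without the first paclitaxel array.

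The transcription factor genes ATF4 and DDIT3 themselves differed by −0.13 and −0.032, and the chaperone genes CALR and HSP90B1 by 0.23 and 0.12. The promoter of ASNS is shown because it holds TGATGNAA, the core shared by ATF4 response elements, in capitals. The 100 bases before the gene start lie at chr7:97872409-97872508 (minus strand, RefSeq, GRCh38.p14).
ASNS: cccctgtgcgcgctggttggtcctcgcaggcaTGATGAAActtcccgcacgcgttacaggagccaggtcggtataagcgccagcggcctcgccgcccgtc
The match begins 68 bases before the start. TGATGNAA, searched on both strands, occurred in 3.67% of RefSeq promoters, in 1 of 4 list members that passed and in 3 of 18 that did not, among those with a window.

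**Figure D3:**
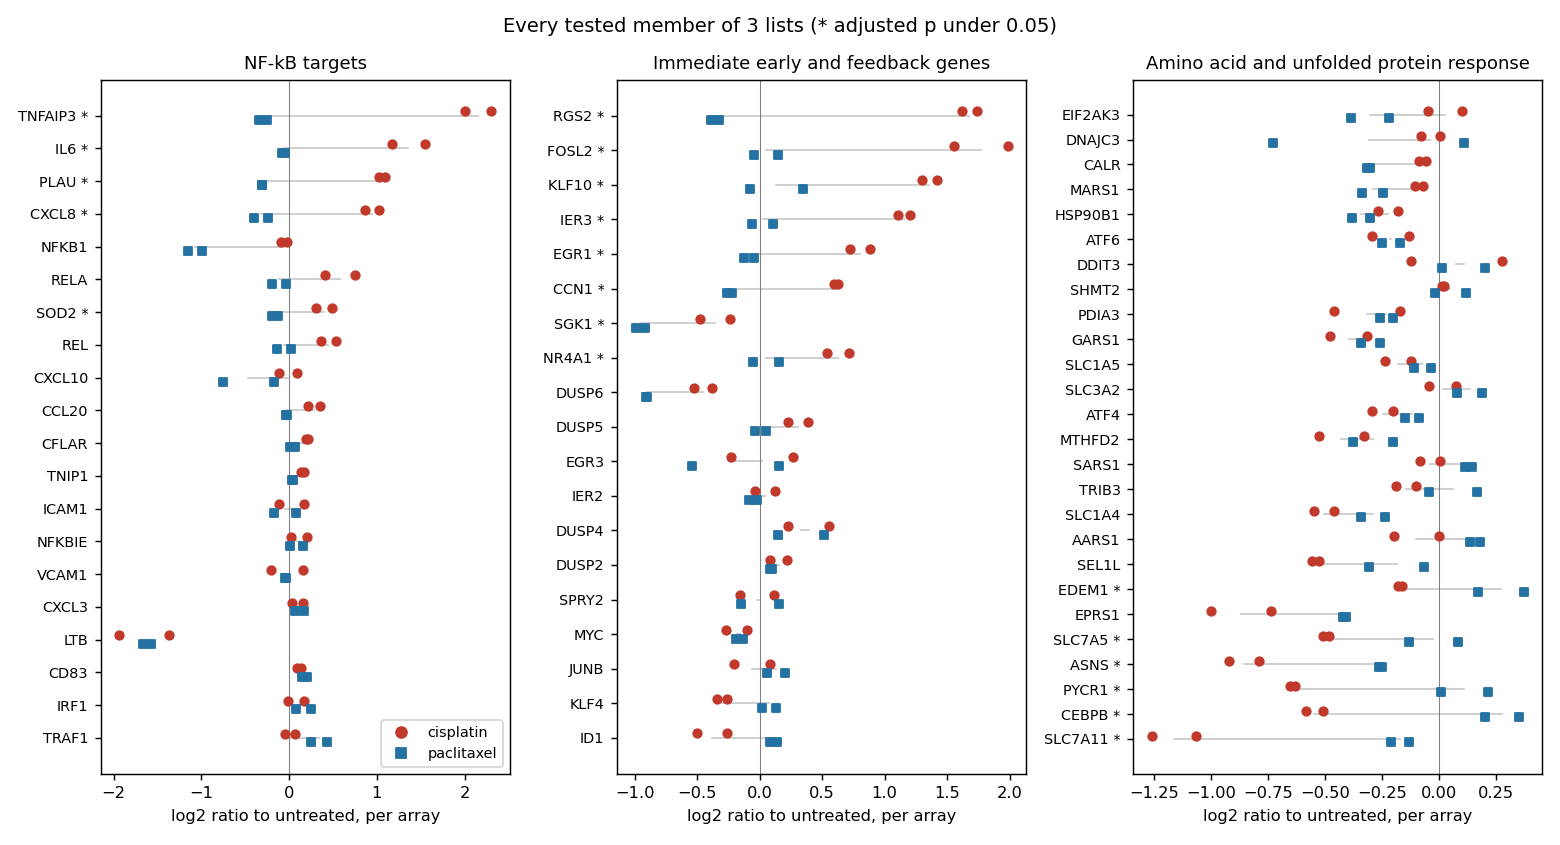
Log2 ratio to untreated RNA per array (horizontal axis) for every tested member of 3 lists, ordered by the size and direction of the difference, with red points for cisplatin and blue squares for paclitaxel; an asterisk marks adjusted p under 0.05. The marked members are higher in cisplatin in the first and middle panels (5 of 20 and 8 of 19) and lower in the panel on the right (6 of 26).

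No tested member of the list of tubulins and microtubule proteins, or of that of G2 and mitosis, passed the test between the drugs. TTL, a gene that acts on alpha-tubulin and is outside these lists, did pass and is described below. Of 16 tested tubulins and microtubule proteins 0 passed in limma (1 at an unadjusted p under 0.05), with a median difference of −0.0024 and a range of −0.46 to 0.16. The beta-tubulin gene TUBB had ratios of 0.23 and 0.096 in cisplatin, against 0.26 and 0.30 in paclitaxel, and a difference of −0.12 with a 95% interval of −0.33 to 0.099. TUBB2A, another beta-tubulin gene, had 0.34 and 0.32 in cisplatin, against 0.27 and 0.60 in paclitaxel. The paclitaxel values of TUBB2A enclosed those of cisplatin, and its difference of −0.11 turned to 0.06 without the second paclitaxel array. The microtubule destabiliser gene STMN1 had a difference of 0.06, which became −0.04 without that array, and also overlapped. MAP1B, a microtubule-associated protein gene, had the widest difference, −0.46 (limma, adjusted p = 0.06574).

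Of 24 tested genes of G2 and mitosis 0 passed in limma (4 at an unadjusted p under 0.05), with a median difference of 0.066 and a range of −0.19 to 0.46. AURKA, the spindle pole kinase gene, had ratios of −0.21 and −0.28 in cisplatin, against −0.46 and −0.57 in paclitaxel, a difference of 0.27 with a 95% interval of 0.059 to 0.48 (limma, adjusted p = 0.1322). TOP2A, the topoisomerase gene expressed in dividing cells, had −0.82 and −0.59 in cisplatin, against −0.48 and −0.57 in paclitaxel. AURKA and TOP2A were thus below 0 with both drugs, and neither passed. They averaged −0.65 and −0.55 in cytarabine and −0.65 and −0.565 in cytochalasin D. In such ratios to untreated RNA, a channel effect common to these arrays cannot be told apart from a drug effect. KIF2C, a kinesin that takes microtubules apart, was above 0 on all 4 arrays and had the largest difference of the list, 0.46 (limma, adjusted p = 0.1047). In RNA of whole cultures, fewer cells in a cycle phase and less RNA per cell cannot be told apart. The mitotic motor gene KIF11 and the checkpoint gene CDC20 lacked a value on the second paclitaxel array. Among 7 tested genes of paclitaxel transport and metabolism 0 passed in limma (2 at an unadjusted p under 0.05), and 1 was lower without either cytarabine array. The efflux pump gene ABCB1 differed by 0.028. The widest differences of that list each way were those of ABCB4 (0.86) and RXRA (−0.47) (limma, adjusted p = 0.06113 and 0.08176).

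**Figure D4:**
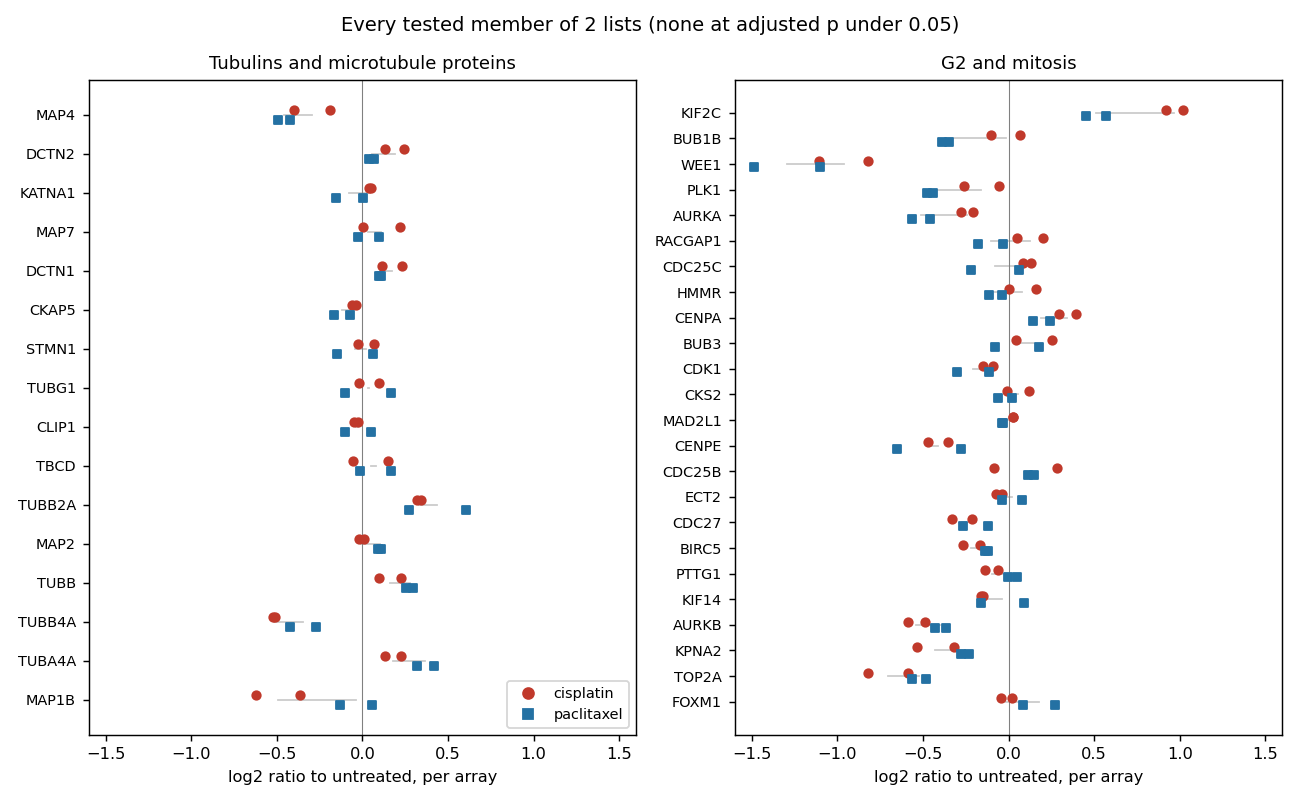
Log2 ratio to untreated RNA per array (horizontal axis) for the 16 tested tubulin and microtubule genes and the 24 tested genes of G2 and mitosis, with red points for cisplatin and blue squares for paclitaxel. No member passed adjusted p under 0.05, and genes such as TOP2A, WEE1 and KIF2C lie on the same side of 0 with both drugs.

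A few chaperone genes were higher in cisplatin. Of 17 tested members 3 (17.6%) were higher and 0 lower, against 4.06% and 1.61% of all features, with a median difference of 0.25. HSPA6 and HSPA8, an inducible and a constitutive HSP70, had differences of 0.84 ± 0.10 and 0.80 ± 0.12, and their partner DNAJA1 one of 0.77 ± 0.11 (limma, adjusted p = 0.007235, 0.01414 and 0.01212). HSPA8 had ratios of 0.26 and 0.41 in cisplatin, against −0.51 and −0.42 in paclitaxel, so the drugs lay on opposite sides of 0. HSPA6 lost its call without the second cisplatin (0.80) or the first paclitaxel array (0.82), HSPA8 without any 1 of the cisplatin and paclitaxel arrays (0.73 to 0.88), and DNAJA1 without the second cisplatin (0.67) or either paclitaxel array (0.76 and 0.78). HSPA6 also did not pass with 5-fluorouracil arrays added (limma, adjusted p = 0.07639 with 10 arrays and 0.2107 with 12). For the list, 0 passed without the second cisplatin or the first paclitaxel array (limma) and 1 without the second paclitaxel array.

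The 2 matricellular genes CCN1 and CCN2, both targets of the tension-sensing factors YAP and SRF, went opposite ways. CCN2 had ratios of −1.23 and −1.28 in cisplatin, against −0.25 and −0.42 in paclitaxel, and was lower by 0.92 ± 0.09 on the log2 scale (limma, adjusted p = 0.00327), whereas CCN1 was higher. With cytochalasin D, which blocks actin assembly, the mean of CCN2 was −1.96 and that of CCN1 −1.43. Of 28 tested genes of the actin cytoskeleton 3 (10.7%) were higher, CCN1 with RDX (radixin) and ARPC5 (an Arp2/3 subunit), and CCN2 (3.57%) was lower. The shares over all features were 4.06% and 1.61%. The median difference of the list was 0.0035, and ACTB, the cytoplasmic actin gene, differed by −0.064. RDX (0.78) and ARPC5 (0.47) lost their calls without any 1 of the cisplatin and paclitaxel arrays (0.73 to 0.84 and 0.41 to 0.54), which left 2 calls in the list. ARPC5 also did not pass with only the 4 arrays of these drugs (limma, adjusted p = 0.06995).

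CYP51A1, the lanosterol demethylase of cholesterol synthesis, had ratios of −0.49 and −0.44 in cisplatin, against 0.35 and 0.35 in paclitaxel. It was lower by 0.81 ± 0.07 on the log2 scale (limma, adjusted p = 0.002767), and each drug lay on its own side of 0. The sterol reductase gene TM7SF2 was also lower, by 0.62 ± 0.09 (limma, adjusted p = 0.01553), and lost its call without either cisplatin array (−0.56 and −0.69) or the first paclitaxel array (−0.53), which left 1 call, and with only the 4 cisplatin and paclitaxel arrays (limma, adjusted p = 0.0516). The other 13 of 15 tested sterol and fatty acid genes did not pass, among them HMGCS1 (0.069) and SQLE (−0.31), and the median was −0.028. The share that was lower was 13.3%, against 1.61% of all features.

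Further lists held 1 or 2 calls each, to be read beside the 4.06% of all features that were higher and the 1.61% that were lower. In hypoxia and glycolysis 2 of 18 (11.1%) were higher: ADM, the vasodilator peptide gene, with 1.56 and 1.42 in cisplatin and −0.62 and −0.34 in paclitaxel (difference 1.97 ± 0.13, limma, adjusted p = 0.004014), and HIF1A, the hypoxia factor gene (0.49 ± 0.09, limma, adjusted p = 0.02295). The median of that list was −0.099, and its glycolytic enzymes such as PGK1 (−0.16) and ALDOA (−0.10) did not pass. HIF1A lost its call without any 1 of the cisplatin, paclitaxel or cytochalasin D arrays (0.42 to 0.57) or with only the 4 cisplatin and paclitaxel arrays (limma, adjusted p = 0.0716), which left ADM alone. In the interferon and antigen presentation list the DNA sensor gene IFI16 (0.65) and the peptide transporter gene TAP1 (0.54) were 2 of 26 (7.69%). IFI16 lost its call without the first cisplatin (0.62) or the second paclitaxel array (0.63), and TAP1 without any 1 of the cisplatin, paclitaxel or cytochalasin D arrays (0.43 to 0.65), with only the 4 cisplatin and paclitaxel arrays (limma, adjusted p = 0.07064), under quantile normalization (0.42) and with the replicate block (0.05111). The list then held 0 calls without the first cisplatin or the second paclitaxel array (limma) and 1 without the second cisplatin, the first paclitaxel or either cytochalasin D array.

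The receptor gene TGFBR1 (1.13 ± 0.19, limma, adjusted p = 0.02259) was the 1 call among 26 genes of TGF-beta and growth factor signalling (3.85%, against 4.06% of all features higher). It lost its call without either cisplatin array (1.15 and 1.10) or the first paclitaxel array (0.84), which left 0 calls in the list (limma), and the list held 2 calls without the second paclitaxel array or either cytarabine array. In the extracellular matrix list PLAU was higher and the integrin gene ITGA2 lower (−0.76 ± 0.15, limma, adjusted p = 0.03441), each 1 of 35 (2.86%). The shares over all features were 4.06% higher and 1.61% lower. ITGA2 lost its call without any 1 of the cisplatin, paclitaxel or cytochalasin D arrays (−0.93 to −0.59) or with only the 4 of cisplatin and paclitaxel (limma, adjusted p = 0.05227), and the list held 1 call without any 1 of the cisplatin and paclitaxel arrays. Of 14 cytosolic ribosomal proteins RPS15 (7.14%) was lower (−0.46 ± 0.09, limma, adjusted p = 0.03025) and of 9 histone and chromatin genes the histone variant gene H3-3B (11.1%) was higher (0.39 ± 0.07, limma, adjusted p = 0.02879). Both lost their calls without any 1 of the cisplatin, paclitaxel or cytochalasin D arrays (−0.50 to −0.42 and 0.37 to 0.42), and 0 members of either list then passed, while 2 of the histone list passed without either cytarabine array. With only the 4 cisplatin and paclitaxel arrays neither RPS15 nor H3-3B passed (limma, adjusted p = 0.07037 and 0.08761), nor did RPS15 with the replicate block (0.05111) or H3-3B with all 12 arrays (0.1273).

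Beyond the lists, the genes with the largest differences had varied roles. MTF1, the metal-responsive transcription factor that drives metallothioneins, had ratios of 1.59 and 1.56 in cisplatin, against −0.097 and −0.38 in paclitaxel (difference 1.81 ± 0.11, limma, adjusted p = 0.001161). STK17A, a kinase of the death-associated family, had 1.26 and 1.55 in cisplatin, against −0.18 and −0.24 in paclitaxel (difference 1.61 ± 0.14, limma, adjusted p = 0.002465). Both kept their calls in each alternative run. A probe without a gene name in the annotation was second only to CDKN1A, with 2.54 and 3.52 in cisplatin and −0.25 and −0.22 in paclitaxel (difference 3.27 ± 0.29, limma, adjusted p = 0.004771).

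The largest difference downwards among features that passed was in UNC5B, a netrin receptor gene, with −1.04 and −0.83 in cisplatin, against 0.42 and 0.29 in paclitaxel. It was lower by 1.29 ± 0.18 on the log2 scale (limma, adjusted p = 0.01123) and lost its call without any 1 of the cisplatin and paclitaxel arrays (−1.40 to −1.19). PYGB, a glycogen phosphorylase gene, was lower by 1.09 ± 0.15 (limma, adjusted p = 0.01044) and KCNE4, a potassium channel subunit gene, by 0.94 ± 0.09 (limma, adjusted p = 0.00327). KCNE4 kept its call in each alternative run, with −0.87 and −0.97 in cisplatin and 0.12 and −0.071 in paclitaxel. PYGB lost its call without the second cisplatin array (−0.94) or either paclitaxel array (−1.11 and −1.07).

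AUH, an enzyme gene of leucine breakdown, had a difference of −0.99 ± 0.17 (limma, adjusted p = 0.02252), with −0.40 and −0.22 in cisplatin and 0.65 and 0.71 in paclitaxel. Here the paclitaxel mean was the one farther from 0. Against the mean of cytarabine and cytochalasin D, AUH passed for neither cisplatin nor paclitaxel (limma, adjusted p = 0.1496 and 0.2046). TTL, the ligase that adds tyrosine back to alpha-tubulin, was lower by 0.89 ± 0.11 (limma, adjusted p = 0.008137), with −0.40 and −0.67 in cisplatin and 0.29 and 0.42 in paclitaxel. Both genes had the drugs on opposite sides of 0. AUH lost its call without any 1 of the cisplatin and paclitaxel arrays (−1.08 to −0.90) and TTL without the second paclitaxel array (−0.83). The aquaglyceroporin gene AQP7, the mitochondrial carboxykinase gene PCK2, the dopamine transporter gene SLC6A3 and SLC66A3 were lower by 0.94, 0.82, 0.82 and 0.86. AQP7 lost its call without the second cisplatin (−0.89) or the first paclitaxel array (−0.88), PCK2 without the second cisplatin or either paclitaxel array (−0.85 to −0.72), SLC6A3 without either cisplatin or the first paclitaxel array (−0.92 to −0.63) and SLC66A3 without the first cisplatin, either paclitaxel or either cytochalasin D array (−0.89 to −0.61). With only the 4 cisplatin and paclitaxel arrays SLC6A3 and SLC66A3 did not pass either (limma, adjusted p = 0.05841 and 0.06375).

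Ratios do not show levels, so the labelled cell line could not be checked by the levels of its epithelial markers. Of 12 tested markers of airway epithelium and neuroendocrine cells 0 passed in limma (0 at an unadjusted p under 0.05), with differences of −0.28 to 0.17, among them KRT8 (0.17), KRT18 (−0.19) and EPCAM (−0.28). Of 13 tested markers of blood, endothelium and stroma 1 (7.69%) passed, the T cell gene CD8A at 1.00 ± 0.17 (limma, adjusted p = 0.03954), and it lost its call without any 1 of the cisplatin and paclitaxel arrays (0.84 to 1.17) or with all 12 arrays and a channel term (limma, adjusted p = 0.05084), which left 0 (limma). Over all features the share that was higher was 4.06%. The leukocyte gene CD4 (−0.24), the endothelial gene PECAM1 (−0.13) and the collagen gene COL1A1 (−0.25) did not pass, and the part of other cells in the results was not tested.

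**Figure D5:**
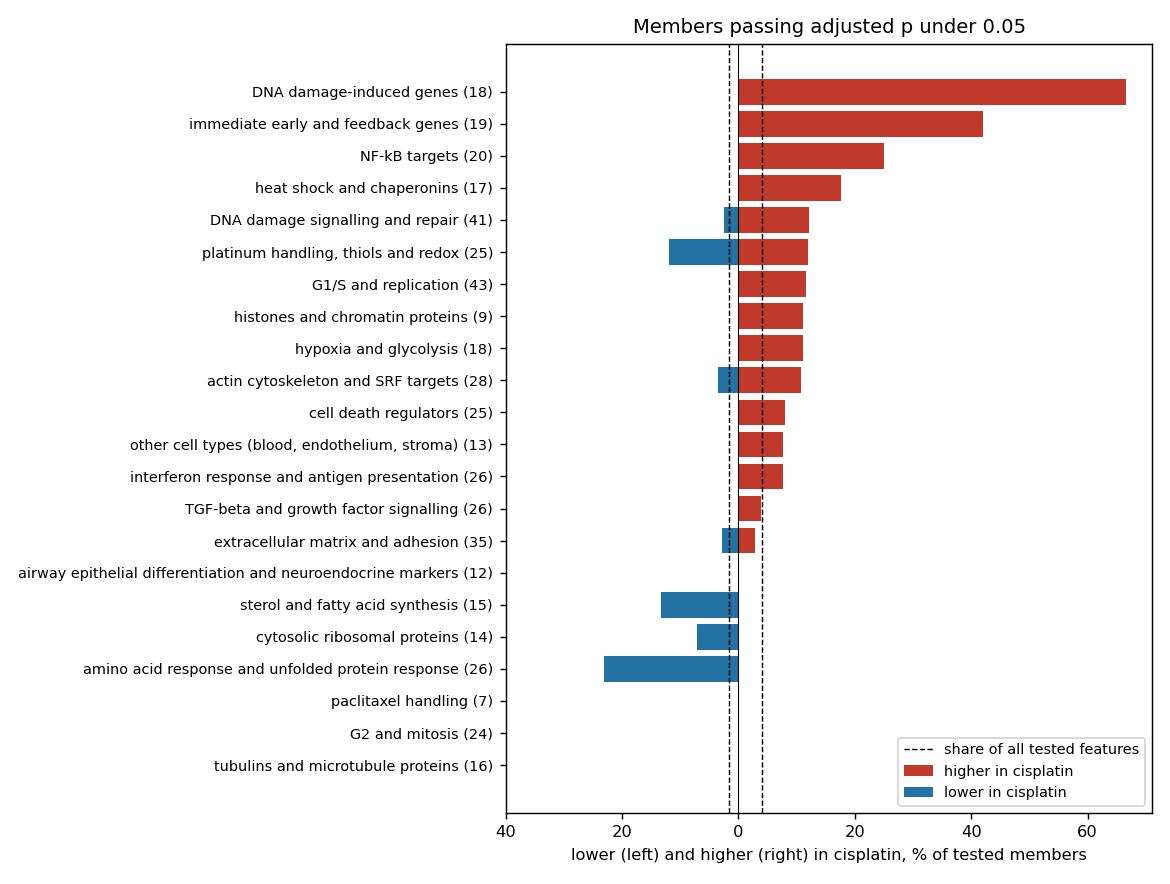
Percent of tested members (number in brackets) of each of the 22 lists that were higher (red, right of 0) or lower (blue, left of 0) in cisplatin at adjusted p under 0.05; dashed lines mark the shares over all features, 4.06% higher and 1.61% lower. The DNA damage-induced genes reach 66.7% and the immediate early genes 42.1% on the higher side, and the amino acid response list 23.1% on the lower side.

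Against the other 2 drugs of the same orientation, many features passed for cisplatin and none for paclitaxel; whether the 2 counts differ was not tested. In cisplatin minus the mean of cytarabine and cytochalasin D, 1233 of 6519 features (18.9%) passed in limma, 748 (11.5%) higher and 485 (7.44%) lower. In paclitaxel minus the same mean 0 features (0%) passed in limma, against 790 at an unadjusted p under 0.05, and 0 to 2 passed in the alternatives. The first count was 427 without the first cisplatin array, 531 without the second and 784 without the first cytochalasin D array. The second was 2 without the first cytarabine or the second cytochalasin D array and 1 without the second paclitaxel array. These comparisons share the cytarabine and cytochalasin D arrays and the cisplatin and paclitaxel arrays with the one above, so they are not independent of it.

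For the members described above the values in the 4 drugs can be read side by side. CDKN1A averaged 3.66 in cisplatin, 0.21 in paclitaxel, 0.20 in cytarabine and 0.13 in cytochalasin D. MDM2 averaged 2.66 in cisplatin and −0.17, −0.21 and −0.14 in paclitaxel, cytarabine and cytochalasin D. TNFAIP3 differed among the others, with 2.15 in cisplatin, −0.30 in paclitaxel, −0.35 in cytarabine and 0.54 in cytochalasin D. HSPA8 was above 0 in cisplatin (0.34) and in cytochalasin D (0.37) and below 0 in paclitaxel (−0.46) and cytarabine (−0.59). For CEBPB paclitaxel averaged 0.28 and cytarabine 0.50, while cisplatin (−0.55) and cytochalasin D (−0.20) were below 0.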

How the data were processed

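Per the labels, RNA of treated and untreated H460 cells was hybridised to two-channel arrays. The deposited series table holds the authors' log ratios of the channels, taken as log2; the normalization, spot filter and scan software were not stated in the labels, and no intensities were analysed, so the number of arrays limits precision. Of 8170 probes 5930 match 1 gene in the platform annotation, 79 several and 2161 none, and 5927 matched RefSeq by gene identifier. Arrays were centred on their median and probes of a gene averaged (407 genes have more than 1). limma 3.58.1 in R 4.3.3 fitted the 8 arrays of cisplatin, paclitaxel, cytarabine and cytochalasin D with 1 mean per drug, no channel term and no replicate block, 4 residual and 2.92 prior degrees of freedom. Features needed values on all 4 cisplatin and paclitaxel arrays, or all 8 for comparisons with the other drugs. p-values were adjusted over all of them (threshold 0.05). The direction was set by MDM2, whose mean in the turned 5-fluorouracil arrays is 1.49 (1 probe). The fit was tested on simulated data.

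The members and the 22 gene lists were chosen with earlier results of these data known. Named genes are up to 12 of the largest differences each way among those that pass without overlapping arrays, the 4 passing members with the largest difference in each list, and a fixed set (MDM2, CDKN1A, PPM1D, DDB2, XPC, FAS, TP53I3, TUBB, TUBB2A, STMN1, AURKA, TOP2A, ERCC1, XPA, ABCB1 and ACTB), 66 in all with a test; 14 more passing list members were added after their values were seen, and untested or other members are given by their values. Replicate numbers name arrays and do not pair them: the deviations of the first and second arrays of the 2 drugs correlated at 0.0191 over 7213 probes. Alternatives changed the arrays fitted, centring, scaling, missing-value filter, probes, moderation, block and threshold, and left out each array. A withheld gene is not reported here. Promoters come from the RefSeq table on GRCh38.p14.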

Additional observations from a re-analysis of the deposited data

How the results depend on the processing

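Precision is limited by 2 arrays per drug and by ratios without intensities, and the log base and direction are not stated. The 391 calls became 237 with only the 4 cisplatin and paclitaxel arrays (206 shared), and 72 with a minimum difference of 1; leaving out 1 array gave 119 to 362. The other settings gave 286 to 459, with 280 against 111 moving to 236 against 121 under quantile normalization. Cisplatin against the other drugs gave 427 to 1164 calls without 1 array, and paclitaxel 0 to 2, with 1 when arrays were scaled and 1 under quantile normalization (limma). The replicate block, whose numbers do not pair arrays, gave 324 calls (292 shared) in place of 391, and 1143 and 0 for those other 2 comparisons. TUBB2A and STMN1 changed sign without the second paclitaxel array (0.060 and −0.041; −0.27 and 0.17 without the first), and neither passed. Of 72 genes named and passing, 24 kept their call in every alternative, 17 lost it only when an array was left out and 31 in another setting; the cause was not tested.

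List counts moved over 1.5 times as follows. With only the 4 arrays G1/S and replication had 3 calls, platinum and redox 3, ribosomal proteins 0, extracellular matrix 1, TGF-beta 2, interferon 1, hypoxia 1, sterol synthesis 1 and histones 0. Among features with values on all 12 arrays, which leaves fewer genes, DNA damage-induced genes had 5, G1/S 3, repair 2, NF-kB 3, cell death 1, paclitaxel handling 1, actin 2, extracellular matrix 1, hypoxia 1, sterol synthesis 1 and other cell types 0. With all 12 arrays and a channel term immediate early genes had 5, platinum and redox 3, histones 0 and other cell types 0; with 10 arrays platinum and redox had 3. Scaled arrays gave extracellular matrix 4 and TGF-beta 2, and the replicate block gave ribosomal proteins 0. Leaving out 1 array gave 1 to 6 for G1/S, 2 to 6 for repair, 4 to 8 for immediate early genes, 1 to 3 for cell death, 2 to 5 for platinum and redox, 0 to 1 for paclitaxel handling, 1 to 4 for the amino acid response, 0 to 3 for heat shock, 0 to 1 for ribosomal proteins, 2 to 4 for actin, 1 to 2 for extracellular matrix, 0 to 2 for TGF-beta, 0 to 2 for interferon, 1 to 2 for hypoxia, 1 to 2 for sterol synthesis, 0 to 2 for histones and 0 to 1 for other cell types (limma). NF-kB had 4 to 6, DNA damage-induced genes 10 to 12, and tubulins, mitosis and airway markers 0.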

Other observations

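Values that belong in no comparison are those of genes measured with 1 of the drugs alone. Of named genes, 36 had a value on both cisplatin arrays and on no paclitaxel array, and 12 the reverse. Missing values follow the submitters' filter, which is not given in the sources used here, so no absence of expression is read from them. Among the 36, chosen after their values were seen, the neural transcription factor gene OLIG2 had −1.76 and −1.74 in cisplatin, the sorting receptor gene SORL1 −1 and −0.987, and the topoisomerase gene TOP1 0.325 and 0.276. Among the 12, the EGFR trafficking gene REPS2 had −1.06 and −0.448 in paclitaxel, and SLC43A1, an amino acid transporter gene, −0.382 and −0.291.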
